A study of Mus musculus with 6 samples.

Results

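The olfactory receptor genes of mouse chromosome 7 were examined for accessible chromatin in Beko cells, a mouse line of leukemic progenitor T cells. The members were all protein-coding genes of chromosome 7 in the GENCODE vM1 annotation whose symbol starts with Olfr. There were 240 of them among 22380 coding genes of the genome, beside 1832 other coding genes of chromosome 7 and 873 Olfr genes on other chromosomes. ATAC-Seq, in which a transposase cuts open chromatin and tags the ends for sequencing, had been performed in 6 libraries. In 3 of them the cells had received DAPT, an inhibitor of γ-secretase (GSI), during 24 h, and in the other 3 the solvent DMSO alone. GSI prevents the release of the active Notch fragment, and Notch signalling is constitutively active in Beko cells. All libraries come from this 1 line, and the labels name no difference in genotype between the groups. The labels give the dose as 10 mg/ml and the study's methods give the same figure in µg/ml. The deposited result is 1 merged list of 32527 peaks for both treatments, with 2123 peaks on chromosome 7. It holds positions only, so GSI and DMSO could not be compared, no spread between libraries could be computed, and the depth behind a peak is unknown. In a bulk list, open chromatin in a small share of the cells cannot be told apart from none. Intervals given below are 95% intervals and cover counting error only.

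Olfactory receptors are G protein-coupled receptors that bind odorants on the sensory neurons of the nose. They form the largest gene family of the mouse and lie in tandem arrays. A mature olfactory neuron expresses a single allele of a single receptor gene, while the arrays are largely silent in other tissues. The coding sequence of a receptor is usually 1 uninterrupted exon. On mouse chromosome 7 one of the arrays also contains the beta-globin locus, whose genes encode the beta chains of embryonic and adult hemoglobin and are used in red cell precursors, and members of the Trim family, whose products are RING-type ubiquitin ligases with roles in antiviral defence.

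None of the 240 Olfr genes had a peak within 1 kb of an annotated start. A count of 0 of 240 allows a share of up to 1.25%, and the Wilson interval reached 1.58%. Among the other coding genes of chromosome 7 such a peak was present at 794 of 1832 (43.3%, Wilson interval 41.1 to 45.6), and in the whole genome at 10506 of 22380 coding genes (46.9%). Joining Olfr genes that lay at most 200 kb apart gave 9 arrays, lettered A to I here from low to high coordinate, and these held all members. They contained 6 peaks in all, 1.14 peaks per Mb (exact Poisson interval 0.417 to 2.47), against 15.5 per Mb (14.8 to 16.2) in the rest of chromosome 7. The arrays were thus 13.6 times poorer in peaks than this mean density (exact conditional interval 6.26 to 37.2). Peaks outside the arrays were unevenly spread, which the interval does not cover. Of 127 windows of 1 Mb that met no array, 34 held 0 or 1 peak, and the median was 9 peaks.

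The sequences of the few open regions are shown first because the remainder of the arrays holds none. Of the 6 array peaks, 2 lay on the starts of Trim21 and Trim68 and 4 lay over 1 kb from every annotated coding start. The middle 300 bases of those 4 peaks are printed from the NCBIM37 assembly (the same build as mm9), plus strand. Beside them stands the peak closest to the GENCODE start of any of the 240 members, which lies just outside array E. Capitals mark matches, on either strand, to short motifs of factors active in blood cells or at promoters: TGGGAA for RBPJ, the DNA-binding factor of the Notch pathway, CAGCTG for E-box proteins, GGGCGG for SP factors and AGATAA for GATA factors. RUNX factors were searched as ACCACA, AP-1 and its relative NF-E2 as TGAGTCA, and ETS factors as ACTTCCG. A core of the motif of CTCF, the insulator protein, was searched as AGGGGGC and, in a second form, as AGAGGGC. The motifs for SP factors and the CTCF core can overlap, and do so in the peak beside Olfr649. A match is a description of letters and not a measured binding site.
Array D, chr7:106892610-106892909: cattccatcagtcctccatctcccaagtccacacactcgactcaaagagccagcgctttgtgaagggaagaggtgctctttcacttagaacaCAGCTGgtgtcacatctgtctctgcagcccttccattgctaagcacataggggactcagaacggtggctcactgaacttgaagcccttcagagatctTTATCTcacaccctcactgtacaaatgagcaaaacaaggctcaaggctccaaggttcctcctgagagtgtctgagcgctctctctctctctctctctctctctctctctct
Array E, chr7:109655436-109655735: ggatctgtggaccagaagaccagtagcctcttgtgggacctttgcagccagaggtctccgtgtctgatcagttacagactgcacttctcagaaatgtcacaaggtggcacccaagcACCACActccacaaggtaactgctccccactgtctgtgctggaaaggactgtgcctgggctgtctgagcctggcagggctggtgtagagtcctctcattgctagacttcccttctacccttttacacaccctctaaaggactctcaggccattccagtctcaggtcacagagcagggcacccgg
Array E, chr7:109661626-109661925: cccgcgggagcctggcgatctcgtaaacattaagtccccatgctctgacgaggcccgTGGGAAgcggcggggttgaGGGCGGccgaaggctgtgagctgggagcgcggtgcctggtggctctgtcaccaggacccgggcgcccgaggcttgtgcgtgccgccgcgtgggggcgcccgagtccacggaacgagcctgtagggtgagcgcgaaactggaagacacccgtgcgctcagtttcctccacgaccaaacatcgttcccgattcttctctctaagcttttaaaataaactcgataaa
Array E, chr7:111318366-111318665: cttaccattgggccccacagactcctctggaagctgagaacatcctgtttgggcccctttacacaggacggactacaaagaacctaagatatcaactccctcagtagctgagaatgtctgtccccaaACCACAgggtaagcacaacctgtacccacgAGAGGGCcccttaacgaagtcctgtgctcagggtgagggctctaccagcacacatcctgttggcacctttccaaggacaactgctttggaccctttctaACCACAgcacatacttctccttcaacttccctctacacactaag
Beside array E, chr7:111348432-111348731: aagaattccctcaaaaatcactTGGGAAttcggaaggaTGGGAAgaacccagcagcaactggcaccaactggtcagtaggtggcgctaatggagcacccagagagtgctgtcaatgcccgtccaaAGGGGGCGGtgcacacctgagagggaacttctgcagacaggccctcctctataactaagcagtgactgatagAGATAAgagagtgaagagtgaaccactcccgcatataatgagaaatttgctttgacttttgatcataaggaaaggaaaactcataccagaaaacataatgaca

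The peaks differed in base composition. The peak at chr7:109661535-109662017 (483 bp, intergenic) had a GC content of 62.9% and an observed to expected CpG ratio of 0.968, the highest ratio of the 6, and yet its nearest annotated start, that of the pseudogene Gm8556, was 7521 bp away. The nearest Olfr start, that of Olfr545, was 18.2 kb away. Its neighbour at chr7:109655391-109655781 (391 bp) had a CpG ratio of 0.104 and lay 12.1 kb from Olfr545. It carried 2 TGGGAA matches, both outside the middle 300 bases shown. The peak at chr7:111318282-111318750 (469 bp, CpG ratio 0.126) lay 1483 bp from the pseudogene Olfr647-ps1, 4937 bp from E030002O03Rik and 10.2 kb from Olfr648. The peak of array D at chr7:106892485-106893036 (552 bp, CpG ratio 0.249) ends its printed stretch in a CT repeat. Of its positions, 82.1% began a 50-base sequence that occurs once in the genome, against 100% in the other 5 array peaks.

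In its central 391 bases, 4 of 6 array peaks held TGGGAA, 2 held CAGCTG, 3 GGGCGG, 1 AGATAA, 2 ACCACA and 2 the CTCF core, while TGAGTCA and ACTTCCG were found in 0 of 6. Among 1707 other peaks of chromosome 7 that were at least as wide, TGGGAA was held by 31.2%, CAGCTG by 33%, GGGCGG by 38.5%, AGATAA by 11.1%, ACCACA by 28.9%, the CTCF core by 28.9%, TGAGTCA by 6.5% and ACTTCCG by 8.79%. All windows of 391 bases laid end to end inside the arrays held them at 28.4%, 9.77%, 1.79%, 27.7%, 24.1%, 6.17%, 4.87% and 0.296%, in the same order. Over all of chromosome 7 these shares were 31.3%, 14.6%, 4.05%, 22.7%, 26.1%, 9.73%, 6.12% and 0.725%. TGGGAA was therefore only slightly rarer in array sequence than along the chromosome (28.4% against 31.3%). GGGCGG and ACTTCCG were the most depleted there in proportion, and CAGCTG and the CTCF core were also rarer. AGATAA was more frequent (27.7% against 22.7%). With 6 peaks, no difference between array peaks and other peaks can be read from these counts.

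The distances show how far the members were from open chromatin. From the start of an Olfr gene to the nearest peak the distance ranged from 3.92 to 727 kb with a median of 287 kb (quartiles 119 and 494 kb). For the other coding genes of chromosome 7 the median was 3.69 kb. Of the 240 members, 1 had a peak within 5 kb, 2 within 10 kb and 27 within 50 kb, and 192 (80%) were over 100 kb from any peak, compared with 363 of 1832 (19.8%) other genes. There are thus no members inside the 1 kb limit, and the nearest outside it was Olfr649 (chr7:111337780-111344474, minus strand), the last gene of array E, with a peak of 378 bp at chr7:111348394-111348771, 3920 bp upstream of its GENCODE start. RefSeq places the Olfr649 start within that gene, 9.68 kb from the same peak. Next came Olfr520 (chr7:106883655-106884605, plus strand) with the array D peak 8830 bp downstream, and Olfr648 (chr7:111327970-111328920, minus strand) with the peak near Olfr647-ps1 10.2 kb downstream. Olfr557 and Olfr549 followed at 10.7 kb each, and their nearest peaks were those on the starts of Trim68 and Trim21. The largest distance, 727 kb, belonged to Olfr605 in the interior of array E.

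**Figure D1:**
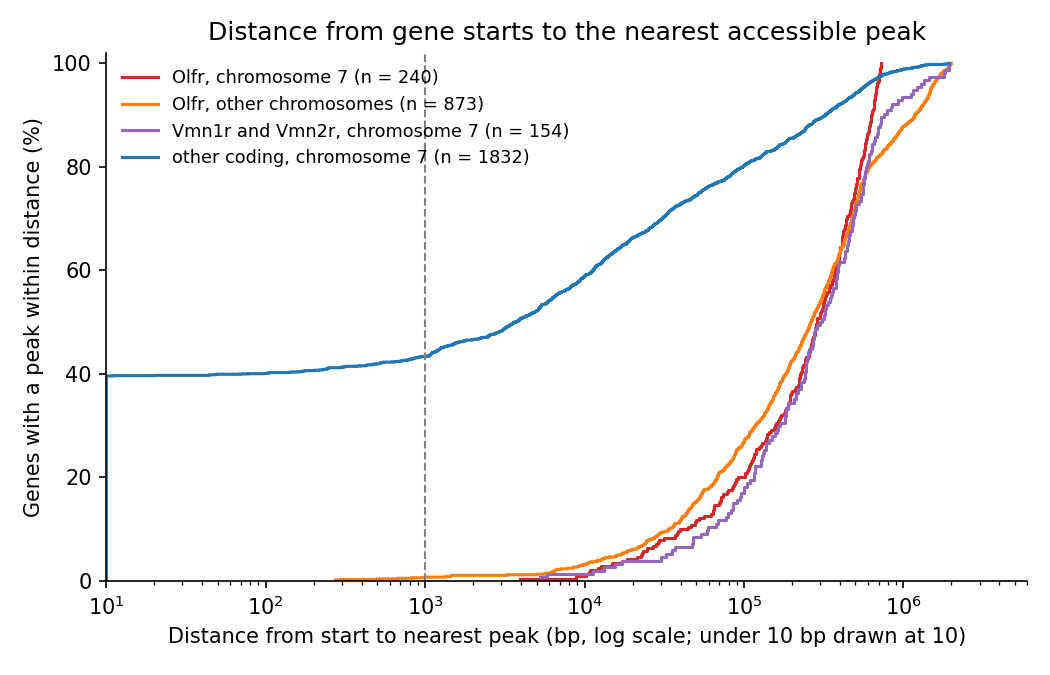
Cumulative share of genes (percent) against the distance from the closest annotated start to the nearest peak (bp, log scale; a start inside a peak is drawn at 10 bp, and the dashed line marks 1 kb). The curve for the 240 Olfr genes of chromosome 7 starts at 3.92 kb and runs beside those of the 154 Vmn1r and Vmn2r genes and the 873 other Olfr genes, while 43.3% of the other coding genes have a peak by 1 kb.

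The starts of these genes are of a particular kind, and the comparison was repeated among genes like them. Of the members 200 (83.3%) had a single annotated exon, against 247 (13.5%) of the other coding genes of the chromosome. For 147 (61.3%) the annotated start was the first base of the coding sequence, so the true start may lie upstream. In the 1 kb around the start the median CpG ratio was 0.138 against 0.419, the median GC content 40.5% against 54.1%, and CpG-rich starts (ratio of at least 0.6 with at least 50% GC) numbered 0 against 655 (35.8%). Among other genes that also started at their coding sequence, 12 of 279 (4.3%, Wilson interval 2.48 to 7.37) showed a peak this close. It was 12 of 160 (7.5%, 4.34 to 12.7) once genes with Vmn1r or Vmn2r symbols, which are vomeronasal receptors, were left out. Such receptors under other symbols were not removed. Among other single-exon genes it was 26 of 247 (10.5%, 7.29 to 15). The upper limit of 1.25% for Olfr genes, and their Wilson limit of 1.58%, lay below all 3 intervals. Both limits treat the 240 members as independent, whereas these fell into only 13 stretches without a peak.

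Genes were next grouped by CpG ratio. Among other genes the share with a peak rose from bin to bin. It was 9 of 219 (4.11%, Wilson interval 2.18 to 7.62) below a ratio of 0.1, 34 of 367 (9.26%, 6.71 to 12.7) from 0.1 to 0.2, 37 of 177 (20.9%, 15.6 to 27.5) from 0.2 to 0.3, and 523 of 668 (78.3%, 75 to 81.3) at 0.6 or more. The Olfr genes numbered 69, 126 and 38 in the lowest 3 bins, each with 0 peaks. A count of 0 allows up to 4.35% of the 69, 2.38% of the 126 and 7.89% of the 38. In the lowest bin this limit fell within the interval of the other genes, so a difference was not detectable there, and in the next 2 bins it fell below it. These limits also treat neighbouring Olfr genes as independent. The 7 members with a ratio of 0.3 or more, among them Olfr1344, Olfr521 and Olfr658, also lacked a peak.

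**Figure D2:**
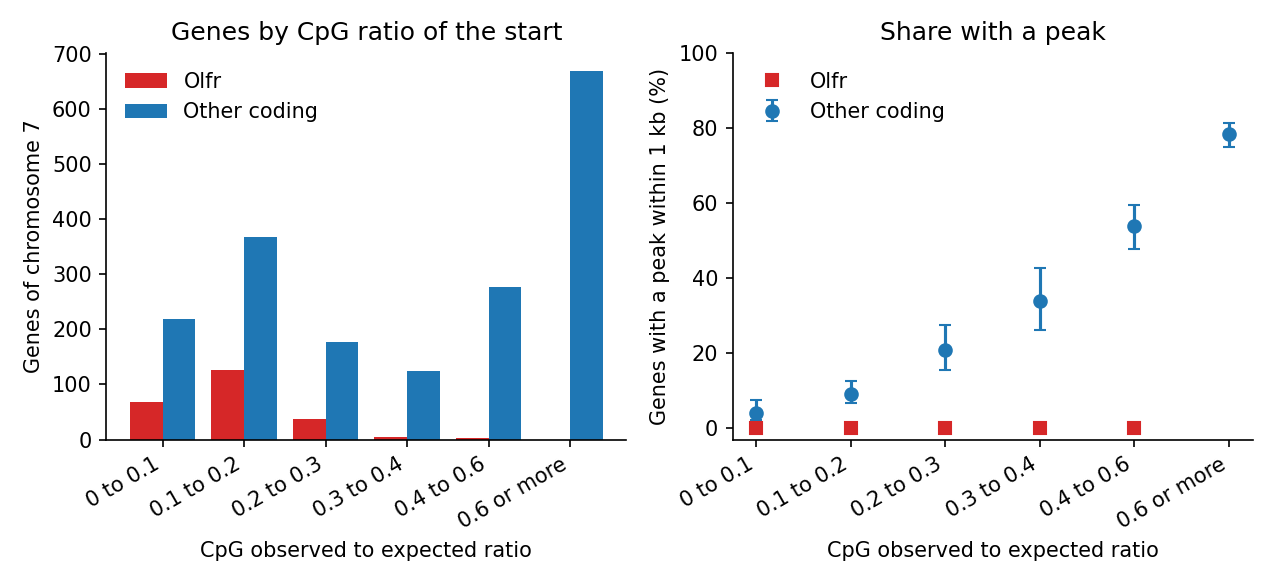
Left, number of chromosome 7 coding genes in each bin of the CpG observed to expected ratio of the 1 kb around the start, for Olfr genes and other genes. Right, percent of them with a peak within 1 kb of a start, with Wilson intervals for the other genes. Olfr genes lie in the low bins and are at 0% in each bin they occupy, while other genes rise from 4.11% to 78.3%.

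Subsets of the members chosen by their annotation had to give 0 peaks too, since the whole set had 0. Only their distances and limits add information. The 40 members with 2 or more exons had a median distance of 303 kb and 0 peaks within 1 kb (limit 7.5%). Some of these, such as Olfr1348 and Olfr642, still started at the first coding base. The 93 members annotated with sequence before the coding part had a median of 263 kb and also 0 (limit 3.23%). RefSeq promoter sequences were found for 203 members, and 201 of these matched chromosome 7 of NCBIM37 exactly. They moved the start upstream by over 1 kb in 8 genes, at most by 47.8 kb (Olfr687), and downstream in some, such as Olfr295. The median shift was 0 bp, so the count from RefSeq starts largely repeats that from GENCODE starts. From the RefSeq starts 0 of 201 had a peak within 1 kb or within 5 kb (limit 1.49%), and the nearest was that of Olfr520 at 8830 bp. The 21 Olfr pseudogenes of the chromosome had 0 peaks within 1 kb as well (limit 14.3%), the closest being Olfr647-ps1 at 1.48 kb.

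Because the receptors resemble each other, the share of sequence on which a short read can be placed was computed. Positions whose 50-base sequence occurs once in the genome made up 82.3% of the arrays and 83.9% of the rest of the chromosome, and with 100 bases 91.3% and 89.3%. Around the starts the median share was 96.2% for the members and 99.7% for the other coding genes of the chromosome. At least 50% was reached by 237 of 240 members (98.8%) and by 1666 of 1832 other genes (90.9%). The lowest member was Olfr603 with 34.1%. Counting only such 50-base positions as length, the density ratio of arrays to the rest was 0.0747, compared with 0.0733 over all bases. The aligner kept 1 place per read, so reads from repeats were assigned to 1 of several equal places.

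Arrays took up 3.72% of the sequenced bases of chromosome 7, held 12.5% of its coding genes and 0.283% of its peaks. At the density of the rest they would hold 81.9 peaks. Gene density went the opposite way, with 49.2 coding genes per Mb in arrays and 13.3 elsewhere, so that 100 coding genes came with 2.31 peaks inside arrays and 117 outside. Covered bases gave a like contrast (0.0617% against 1.03%). The array peaks themselves were 391 to 772 bp wide with a median of 518 bp, compared with 564 bp for other peaks of the chromosome. Pooled over the arrays, the density outside them was higher. From 0 to 50 kb outside them there were 11 peaks (12.2 per Mb, Poisson interval 6.1 to 21.9), from 50 to 100 kb 14.4 per Mb (7.69 to 24.7) and from 100 to 200 kb 23.4 per Mb (16.8 to 31.7). This did not hold at every array, since B, C and G had no peak within 50 kb on either side and the 1352 kb between B and C contained 0 peaks.

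**Figure D3:**
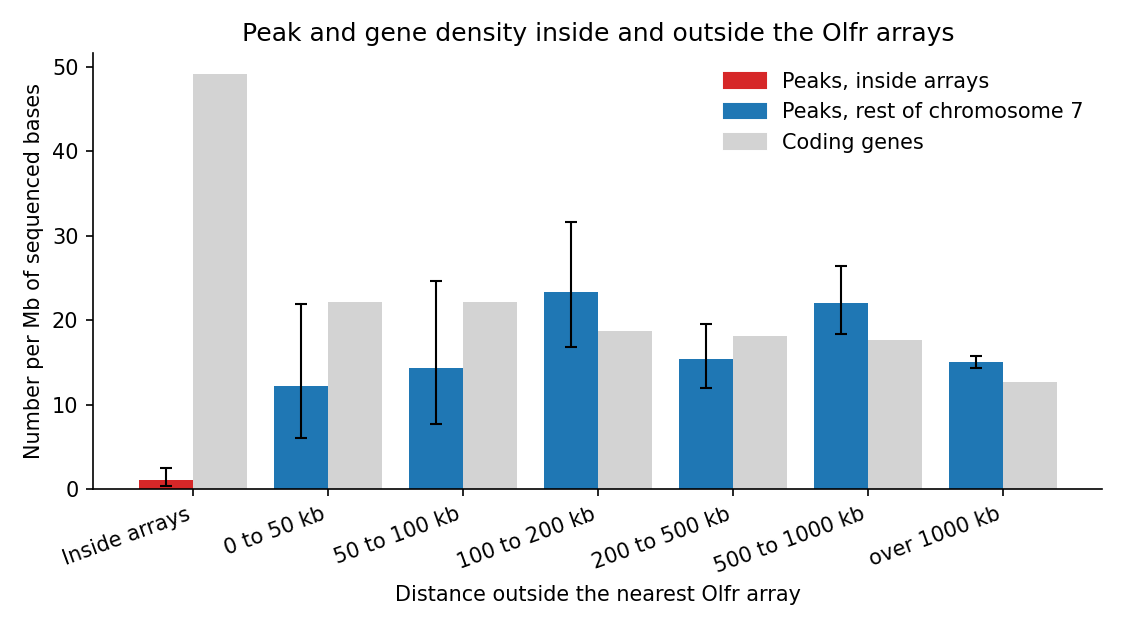
Peaks per Mb of sequenced bases with exact Poisson intervals (coloured bars) and coding genes per Mb (grey bars), inside the 9 Olfr arrays and by distance outside the nearest array on chromosome 7. Peak density is 1.14 per Mb inside and 12.2 per Mb in the first 50 kb outside, while gene density is highest inside at 49.2 per Mb.

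7 of the 9 arrays, with 145 of the members, contained no peak. Array A (8 genes, Olfr1344 to Olfr1350, 131 kb) lay between a peak in Gm16532 29.4 kb to its left and the peak near the imprinted gene Peg3 158 kb to its right. Array B had 2 genes and array C 15 genes (Olfr310 to Olfr292, 427 kb), and a single peak-free stretch of 2.03 Mb held both together with 12 vomeronasal receptor genes. Array F (36 genes, Olfr651 to Olfr692, 816 kb) ran from 44.7 kb beyond the peak of Trim30d to 30.2 kb before that of Fam160a2. Array G (25 genes, Olfr693 to Olfr716, 471 kb) had its nearest outside peaks 463 and 511 kb away, and the distances of its members were 464 to 713 kb. Array H (40 genes, Olfr467 to Olfr519, 1080 kb) ended 39.6 kb before the peak of Eif3f, a subunit of a translation initiation factor. Array I (19 genes, Olfr522 to Olfr541, 543 kb) began 23.7 kb after the peak of Mtg1, which encodes a mitochondrial GTPase. A count of 0 allows up to 2.78 peaks per Mb in array H, 3.67 in F, 5.52 in I, 6.37 in G, 7.03 in C and 22.9 in A, so the short arrays say little by themselves. Array D, with Olfr520 and Olfr521 alone in 33 kb, held 1 peak.

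Array E (chr7:109625287-111344474, 1719 kb) was the largest, with 93 Olfr genes from Olfr543 to Olfr649, and contained 5 of the 6 array peaks (2.91 per Mb, Poisson interval 0.944 to 6.79). All 5 lay toward its ends. Measured from the nearer end, they lay 30.1, 36.2, 88.2, 210 and 25.7 kb inside, the first 4 at the side of Rrm1, which encodes the large subunit of ribonucleotide reductase. The median distance of its members was 278 kb. Leaving out array E left 1 peak in 3.56 Mb, 0.281 per Mb.

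20 coding genes without an Olfr symbol lay inside arrays, 13 of them in array E. Whether any of them is a receptor under another symbol was not checked. Of the 20, 2 (10%, Wilson interval 2.79 to 30.1) showed a peak at their start or at most 1 kb from it. Trim21 (chr7:109706436-109713983, minus strand), an intracellular antibody receptor, had a peak of 772 bp on its start (chr7:109713535-109714306), the widest of the array peaks. Trim68 (chr7:109826094-109835840, minus strand) had one of 591 bp (chr7:109835480-109836070). The CpG ratio around the start was 0.149 in Trim21 and 0.671 in Trim68. The 200 bases before both starts are printed beside those of Olfr649 (CpG ratio 0.164) and Hbb-b1 (0.104), each on the strand of its gene in NCBIM37, to show starts with and without a peak from 1 array. Trim21 had its peak at a ratio slightly below that of Olfr649, which had none. For Olfr649 the ratio and the printed bases belong to its GENCODE start, whereas RefSeq places the start within the gene. The matches in capitals are GGGCGG, on the opposite strand, in Trim21 and AGATAA in Hbb-b1.
Trim21, chr7:109713984-109714183: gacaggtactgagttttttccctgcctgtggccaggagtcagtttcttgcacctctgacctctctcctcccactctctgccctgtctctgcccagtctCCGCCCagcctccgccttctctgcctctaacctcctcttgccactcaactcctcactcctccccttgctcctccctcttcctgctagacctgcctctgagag
Trim68, chr7:109835841-109836040: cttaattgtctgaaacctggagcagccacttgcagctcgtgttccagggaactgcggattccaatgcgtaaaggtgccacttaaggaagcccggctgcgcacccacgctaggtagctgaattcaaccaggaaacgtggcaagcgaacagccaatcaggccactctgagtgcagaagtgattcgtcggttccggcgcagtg
Olfr649, chr7:111344475-111344674: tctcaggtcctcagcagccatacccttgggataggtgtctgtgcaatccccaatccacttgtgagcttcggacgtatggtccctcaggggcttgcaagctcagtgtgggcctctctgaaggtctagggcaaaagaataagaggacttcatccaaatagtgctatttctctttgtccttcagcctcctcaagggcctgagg
Hbb-b1, chr7:110976611-110976810: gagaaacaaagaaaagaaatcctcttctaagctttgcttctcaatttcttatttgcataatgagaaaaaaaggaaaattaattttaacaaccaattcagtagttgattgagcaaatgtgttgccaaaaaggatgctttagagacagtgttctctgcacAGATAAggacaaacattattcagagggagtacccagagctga

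The other embedded genes lacked a peak. Among them were the deubiquitinase genes Dub2a and Usp17l5 in array E and Dub3, Dub1a and Dub1 in array F, whose nearest peaks were 265 to 728 kb away. At the starts of Dub2a and Dub3 only 42.7% and 46.6% of the 50-base positions were unique. Cd163l1, a scavenger receptor gene of array I, was 80 kb from a peak.

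Between arrays E and F lay 357 kb with a further Trim cluster, and here peaks were more frequent. This gap contained 9 peaks (25.2 per Mb), and 7 of its 11 coding genes, all annotated as Trim, had a peak at the start. These were Trim34a, Trim5, Trim12a, Trim12c, Trim30b, Trim30a and Trim30d, while Trim6, Trim34b, Trim30c and a second entry for Trim30b had none within 1 kb. Their copies are similar, and around the starts of Trim5 and Trim12a only 60.5% and 64.4% of 50-base positions were unique. Over chromosome 7 as a whole 11 of 17 Trim genes (64.7%, Wilson interval 41.3 to 82.7) showed one at most 1 kb from a start. The share of other coding genes of the chromosome, 43.3%, lay within that interval, so a difference from them was not shown. If genes were joined across 500 kb, this cluster fell inside the arrays and the density became 2.66 per Mb.

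The beta-globin locus lay within array E at chr7:110961038-111001754 (40.7 kb), 20.7 kb from Olfr67 on one side and 28.1 kb from Olfr66 on the other. It contained 0 peaks, and so did the 28.1 kb between Hbb-y and Olfr66, where the locus control region of the globin genes lies and where 93.7% of 50-base positions were unique. The nearest peak to any globin gene was the one near Olfr647-ps1. The adult genes Hbb-b1 and Hbb-b2 were 342 and 356 kb from it. The embryonic genes Hbb-y and Hbb-bh1 were 317 and 327 kb away, and Hbb-bh2 329 kb. The pseudogenes Hbb-bh0 and Hbb-bh3 were at 320 and 336 kb. Uniqueness around the starts was 66.8% for Hbb-b1 and 60.2% for Hbb-b2, near-identical copies, and 100% for the other 3 coding genes. The alpha-globin genes on chromosome 11 also lacked a peak within 1 kb. Their nearest peaks were 2.96 kb (Hba-a1), 3.26 kb (Hba-a2) and 8.44 kb (Hba-x) away, compared with a median of 2.63 kb over all coding genes.

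**Figure D4:**
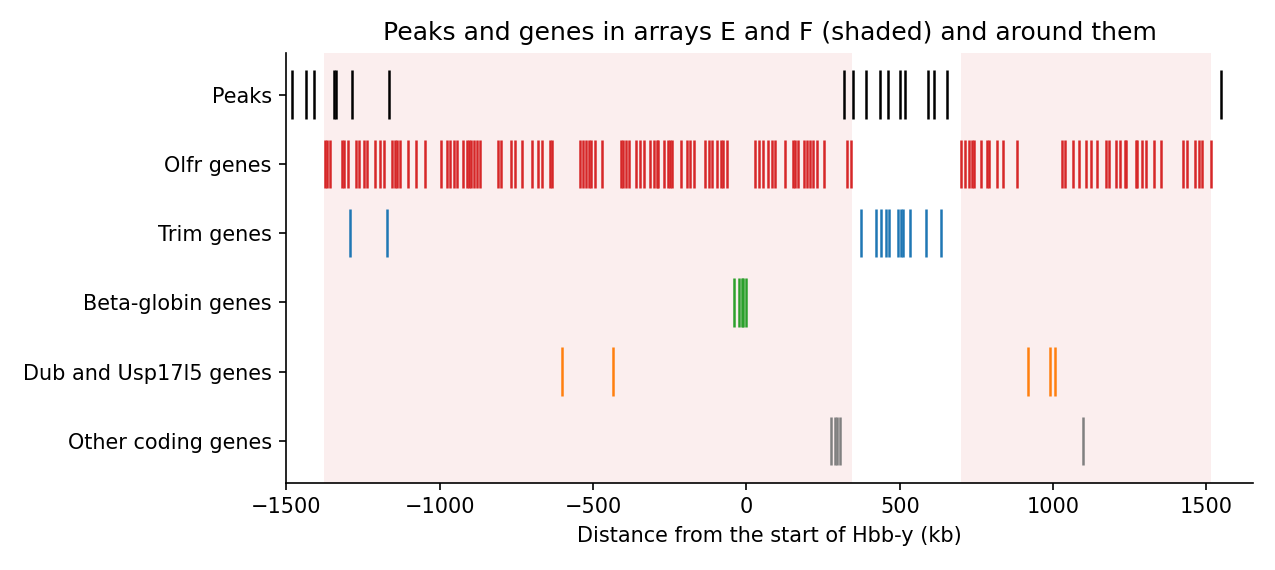
Positions of peaks (top row) and of the coding genes by family in and around arrays E and F (shaded), as distance from the start of Hbb-y in kb, 1 tick per peak or gene. The 5 peaks of array E stand near its ends, and 9 peaks stand between the arrays, where the Trim cluster lies. The interval around the globin genes and all of array F are empty.

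The stretch without a peak that held the globin genes ran from the Trim68 peak to the peak near Olfr647-ps1 (chr7:109836071-111318281, 1482 kb) and contained 89 coding genes, 78 of them Olfr. By length it ranked 20 among the peak-free stretches of chromosome 7, whose median was 15.9 kb, but by coding genes it ranked 1. Stretches 2 and 3 by coding genes were those of array H (1225 kb, 43 coding genes) and array F (891 kb, 41 coding genes). The 240 members fell into 13 stretches in all. The longest stretches of the chromosome had no Olfr gene. They were 7.65 Mb, of which 654534 bp are sequenced, with 4 coding genes, then 3.92 Mb with 32, of which 26 were vomeronasal receptors, and 3.83 Mb with 2. Of 127 windows of 1 Mb that met no array, 30 had at least 20 coding genes. These 30 had a median of 37.5 peaks, and 4 of them had 0 or 1 peak.

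**Figure D5:**
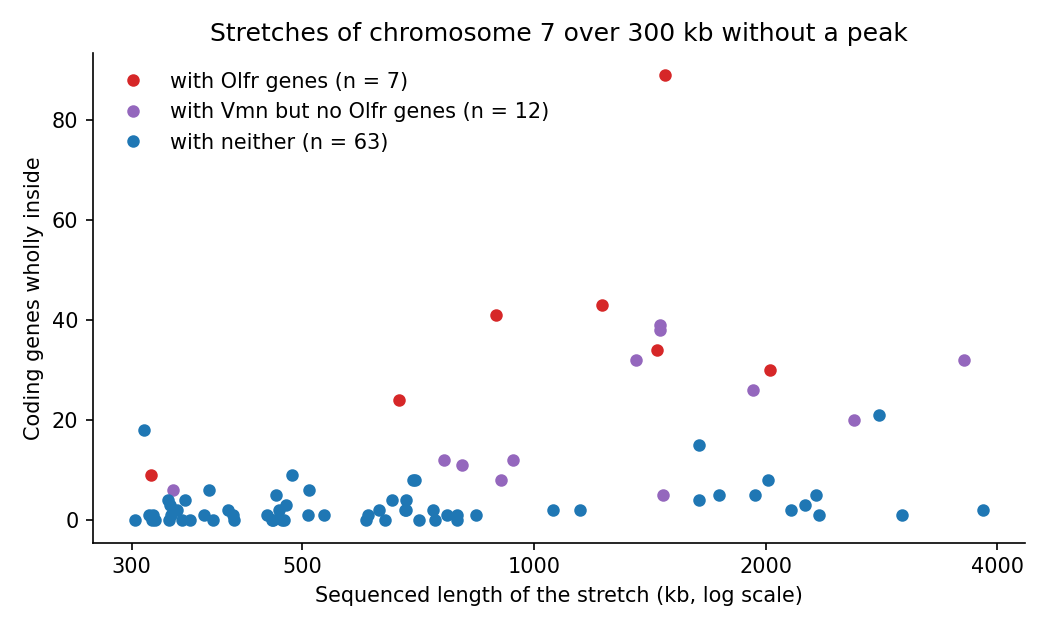
Coding genes wholly inside each peak-free stretch of chromosome 7 over 300 kb against its sequenced length (kb, log scale), by the receptor genes it holds. The stretch with the globin genes stands highest with 89 coding genes in 1482 kb, and the others with Olfr genes hold 9 to 43.

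Other receptor families gave like values. The 154 Vmn1r and Vmn2r genes of chromosome 7, which encode pheromone receptors of the vomeronasal organ, had 0 peaks within 1 kb (limit 1.95%) and a median distance of 304 kb. Among the 873 Olfr genes of other chromosomes 6 had a peak (0.687%, Wilson interval 0.315 to 1.49), and the median distance was 264 kb. These were Olfr9, Olfr763 and Olfr1358 on chromosome 10, Olfr312 and Olfr313 on chromosome 11 and Olfr15 on chromosome 16. The interval for chromosome 7 overlapped this one, so a difference between chromosomes was not shown. Chromosome 2, with 286 Olfr genes and a median distance of 594 kb, and chromosome 9, with 129, also had 0. The 27 kallikrein genes of chromosome 7, serine proteases in another tandem cluster, had 0 peaks within 1 kb (limit 11.1%), but their median distance was 52.5 kb.

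The cell type was checked with marker genes. The cell type lists are read against the 46.9% of all coding genes with a peak within 1 kb. Of the pre-T-cell markers 9 of 11 found in the annotation had a peak within 1 kb of a start, including Cd3e, Rag1, Lck, Bcl11b and Tcf7, while Cd3d was 1.12 kb and Il2ra 5.13 kb from one. B-cell markers had 0 of 5. Of the erythroid list 4 of 10 had one, namely the regulators Gata1, Klf1 and Nfe2 and the receptor gene Epor, a share close to that of all coding genes. Tal1, Slc4a1, Hba-a1, Hba-a2, Hbb-b1 and Hbb-b2 had none. Of the genes used by olfactory neurons 3 of 17 had one, which were Adcy3, Lhx2 and Ldb1. Those without one included Omp, the classical marker of mature olfactory neurons, at 10.1 kb from a peak. They also included Gnal (4.55 kb), Emx2 (4.06 kb) and Ebf1 (35.6 kb). Genes on this list, with or without a peak, can have roles beyond these neurons.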

How the data were processed

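ATAC-Seq was performed by the authors with a commercial kit on 6 libraries of Beko cells, 3 with GSI and 3 with DMSO, and groups were taken from the labels. Reads were aligned by the authors to mm9 with HISAT2 2.2.1, keeping 1 alignment per read, and deduplicated with Picard. Peaks were called by the authors with MACS2 without an input, required in 3 of the 6 libraries, and filtered against blacklisted regions. Whether ends were shifted for the transposase is not stated. The deposited list gives positions, in bp, and no signal. A peak of 1 treatment can be in the list, and a region open in fewer than 3 libraries is not.

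Starts were counted from 1, and GENCODE vM1 on NCBIM37, the build of mm9, gave genes. The distance of a gene was that of its closest transcript start. Densities used sequenced bases. RefSeq promoters (250 bases before to 50 after the start, GRCm38.p6) were placed by exact match to NCBIM37. Exact k-mer counts (50 and 100 bases, both strands) gave uniqueness. Named genes followed a rule: all members within 1 kb and the 5 next, all globins, and embedded genes with a peak or of the Trim, Usp17l or Dub families. Genes beyond it, such as the examples by CpG ratio, were chosen after their values were seen. Members and lists were chosen with earlier results of these data known. No test over samples was possible. Scripts were tested on simulated data. Python 3.11.15, numpy 2.4.6, pandas 2.3.3, scipy 1.17.1, numba 0.67.0 and matplotlib 3.10.9 were used.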

Additional observations from a re-analysis of the deposited data

How the results depend on the processing

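Of 26 alternative settings 22 gave a value inside the wide counting interval of the reported one (for covered bases and globin genes, the scaled interval of the peak count and the same count) and 4 fell outside it, and the ratio of arrays to the rest remained below 1 in all its alternatives. Being inside the interval allows large shifts: the density inside arrays was 0.568 peaks per Mb with only peaks of at least 500 bp, and 0.757 with peaks at starts of other coding genes left out. With genes joined across 500 kb, which takes the Trim cluster between arrays E and F into an array, the density inside arrays was 2.66 peaks per Mb and the ratio to the rest of chromosome 7 was 0.172. Without the array that holds most peaks (array E) they were 0.281 peaks per Mb and 0.0181. The share of Olfr genes with a peak stayed at 0 in 5 of 7 alternatives and was 0.417% within 5 kb and 0.833% within 10 kb. In the alternatives that only narrowed the window or left out peaks, the main count of 0 fixed the result in advance. They are nevertheless counted among the 22. The alternative with RefSeq starts was chosen after seeing the data. No paired analysis was possible because libraries have no values of their own in these data. The study gives read counts of the libraries in its supplement, and these were not used here. Every count of 0 is limited to what these peak calls could detect.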
